A study of Mus musculus with 32 samples.

Results

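The 14 early 2-cell embryos of the series, 6 labelled Trp53 MZ-KO and 8 WT, were compared gene by gene. They were chosen by the group names in the table's column headers and are 14 of the 32 libraries deposited. Of 54532 genes in the table, the 7675 with an FPKM of 1 or more in at least 6 of these 14 embryos were tested. FPKM is the number of sequenced fragments relative to the length of the gene and the depth of the library. MZ-KO embryos came from knockout females mated to knockout males, so neither the egg nor the embryo's own genome carried an intact Trp53. The knockout allele was made from a floxed allele that flanks exons 2 to 10, recombined by Ddx4::Cre, a driver active in germ cells, on a mixed Bl6/C57 background. The WT controls were Trp53 flox/flox, so they carried the unrecombined floxed allele. Zygotes of hormone-primed females were harvested 24 hours after the injection of hCG, the ovulation hormone, and cultured in KSOM medium, and early 2-cell embryos were collected 28 to 32 hours after hCG. Each library was made from 1 embryo lysed in 5 uL, with full-length cDNA of the SMART-seq type, 15 cycles of PCR and Tn5 tagmentation. Eggs (3 WT, 3 labelled KO) and late 2-cell embryos (6 WT, 6 labelled MZ-KO, collected 48 hours after hCG) are used only where a gene's course over time is given. The number of females behind each group is not given in the sources used here, so all p-values measure the spread between single embryos, which may be siblings.

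Trp53 encodes p53, a transcription factor that is stabilised by DNA damage and other stress and that activates genes of cell cycle arrest, repair and apoptosis. The mouse embryo starts with RNA stored in the egg, clears much of it around the 2-cell stage and begins to transcribe its own genome, with an early wave that includes the homeobox gene Dux. Dux binds and activates a set of genes that are expressed briefly in 2-cell embryos, such as the Zscan4 cluster, Tcstv1 and Tcstv3, Zfp352 and the Usp17l genes. The comparison bears on whether p53 shapes this early programme.

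The steps of the FPKM values put the depth at 15352746 to 22204486 reads in the MZ-KO libraries and at 7158456 to 20786305 in the WT libraries. An FPKM of 1 was reached by 7325 to 7653 genes in MZ-KO embryos and by 6965 to 7990 in WT embryos. The libraries were not equally alike. MZ-KO libraries 1 to 3 correlated with each other at a Spearman's rho of 0.873 to 0.894 across the tested genes and libraries 4 to 6 at 0.871 to 0.922, whereas pairs across these sets lay between 0.813 and 0.860. WT library 3 correlated with the other WT libraries at only 0.753 to 0.849. On a scale where the mean of the WT eggs is 0% and the mean of the WT late embryos 100%, WT library 3 lay at 30.3%, the other 7 WT libraries at 11.7% to 19.9% and the 6 MZ-KO libraries at 11.3% to 16.2%. For the genes chosen by the naming rules, calls that ended without WT library 3 are marked. Apart from the Fbxw cluster, calls of other genes were not examined in this way. None of the 14 markers of cumulus and granulosa cells reached FPKM 1 in any early embryo, while all 6 markers of the oocyte and early embryo (Zp3, Oosp1, Nlrp5, Ooep, Gdf9 and Dppa3) were tested and limma called 0, also at an unadjusted p below 0.05.

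**Figure D1:**
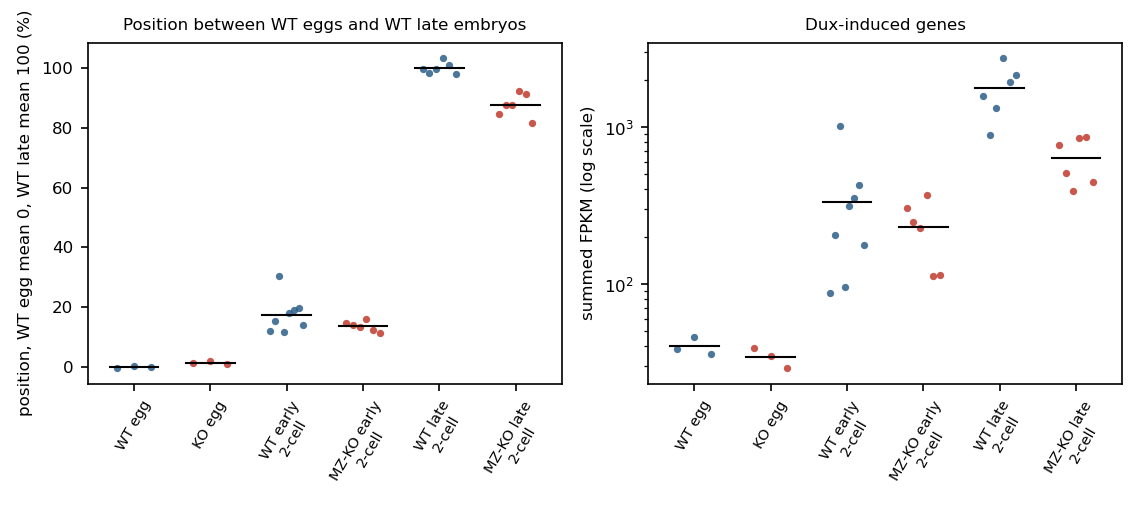
Left, position of each library (points) between the mean of WT eggs (0%) and the mean of WT late 2-cell embryos (100%). Right, summed FPKM of the 40 Dux-induced genes on a log axis; bars are group means. WT early library 3, at 30.3%, is the highest of the early embryos in both panels.

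Trp53 RNA itself (ENSMUSG00000059552, build mm10, chr11:69580359-69591873, plus strand) was lower in the MZ-KO embryos. It ran from 0.311 to 1.105 FPKM (median 0.856) in the 6 MZ-KO embryos. In the 8 WT embryos it ran from 2.60 to 9.29 (median 6.29). The groups did not overlap. Trp53 fell by 1.92 (SE 0.25) on the scale of log2(FPKM + 1), which is the scale of every difference given here and which understates the change of low genes. The adjusted p was 0.00126 (limma, Benjamini-Hochberg over the 7675 genes), and an exact two-sided permutation test of this difference gave p = 6.7e-04, the smallest that the 3003 arrangements of 14 embryos allow. The FPKM covers the whole gene, so reads from the deleted and the retained exons are not separated. Of the 17 tested genes within 500000 bp of Trp53 on either side, limma called 0, with 1 at an unadjusted p below 0.05.

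In all, 252 genes (3.28% of those tested) were called at an adjusted p below 0.05, with 198 higher in MZ-KO (2.58%) and 54 lower (0.704%). At an unadjusted p below 0.05 there were 1635. Of all tested genes, 4404 lay above WT and 3271 below. In 9 of the 252 called genes, 4 higher and 5 lower, one of the groups had no embryo at FPKM 1, so they were tested only through the group where they are high; those named here are marked. The median difference was 0.75 for the called rises, -0.67 for the called falls and 0.05 for all tested genes. Rises reached 1 or more in 49 genes and falls in 9. In 132 tested genes (1.72%) the 6 MZ-KO and 8 WT values did not overlap, 104 with MZ-KO higher (1.36%) and 28 with MZ-KO lower (0.365%). Among these were 87 called rises and 18 called falls. The protein-coding genes that rose were shorter than the tested ones, with a median exon length of 2592 nt against 3527 nt, and those that fell were longer, with 4957 nt. Taking out the trend with gene span left 196 calls split into 118 higher and 78 lower, so the share of rises dropped from 78.6% to 60.2%. Leaving out MZ-KO library 2, 3, 5 or 6 left 126, 128, 110 or 96 calls. Of the 59 called genes chosen by the naming rules, 11 kept their call in every alternative fit that tested them: Trp53, Crnkl1, Erich5, Pfn1, Mmadhc, Orc6, Cfap298, Ggct, Peak1os, Ralgds and Ccdc186.

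**Figure D2:**
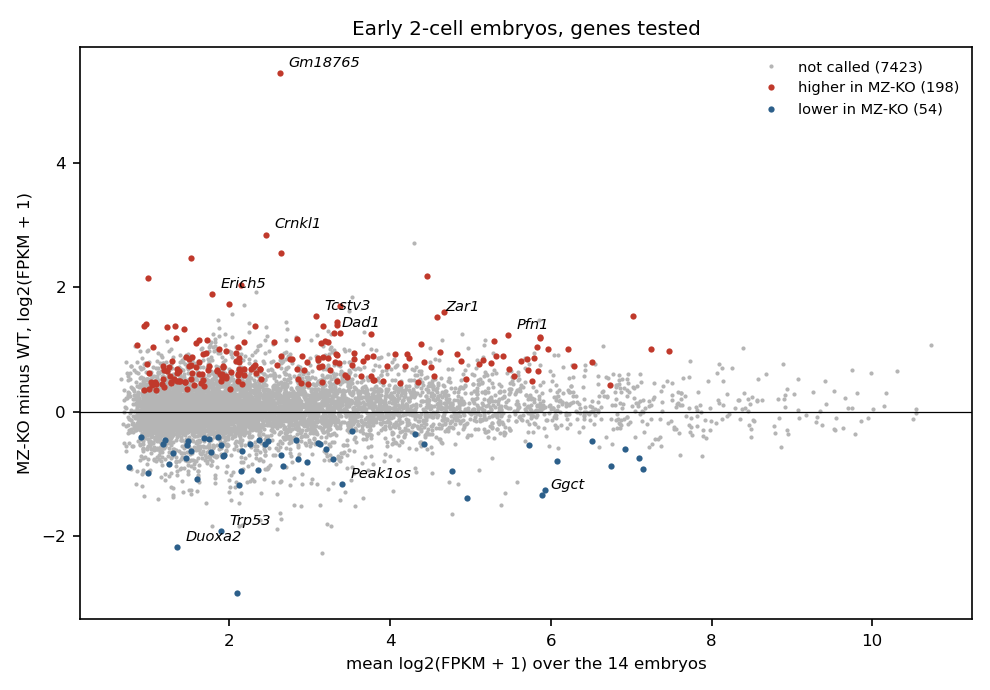
Each point is 1 of the 7675 tested genes, with its mean log2(FPKM + 1) over the 14 embryos on the x axis and the MZ-KO minus WT difference on the y axis. The 198 called rises (red) and 54 called falls (blue) are spread over the range of levels, and some uncalled genes (grey) differ by as much as called ones.

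The p53 target genes were not called at this stage. Of 9 tested targets of cell cycle arrest, limma called 0, with 4 at an unadjusted p below 0.05, and 7 lay below WT (median -0.24). Of 4 tested apoptosis targets and 3 tested targets of repair and metabolism, 0 were called and 0 had an unadjusted p below 0.05, with medians of 0.11 and -0.03. Cdkn1a, the inhibitor of cyclin-dependent kinases known as p21, ran from 0.666 to 3.39 FPKM (median 1.37) in MZ-KO embryos. In WT it ran from 1.52 to 13.99 (median 2.79), and the highest value was that of WT library 3, the next being 4.54. The groups overlapped, and the difference of -0.86 had a 95% interval of -1.60 to -0.115 and an adjusted p of 0.173. Without WT library 3 it was -0.605 (adjusted p = 0.163). Plk2, a polo-like kinase, differed by -0.66 (adjusted p = 0.107) and Ccng1, cyclin G1, by -0.54 (adjusted p = 0.182). Mdm2, the ubiquitin ligase that degrades p53, differed by 0.27 (95% interval -0.07 to 0.60), and the apoptosis effector Bax by 0.14 (-0.14 to 0.42). A strict p53 response element (paired half-sites with up to 13 bases between them, both strands) was searched in RefSeq promoter windows of build GRCm38.p6, 250 bases before to 50 after a start. It was found in 0.074% of 27025 genes with a window and in 0.0696% of 4310 tested ones. Of the 106 rises and 23 falls with a window, 0 held a match. Cdkn1a, shown because it is the reference target of p53, has a window that holds a match to this pattern, marked by capitals. Whether p53 binds the marked pair of half-sites, or bases beside it, was not tested.
Cdkn1a (chr17:29090729-29091028, plus strand): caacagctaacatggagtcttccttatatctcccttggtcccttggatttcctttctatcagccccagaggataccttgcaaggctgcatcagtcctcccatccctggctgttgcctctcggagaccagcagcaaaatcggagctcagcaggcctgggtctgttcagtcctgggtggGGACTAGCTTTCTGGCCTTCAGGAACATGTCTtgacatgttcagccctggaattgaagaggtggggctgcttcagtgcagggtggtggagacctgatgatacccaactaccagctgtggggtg

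The Dux-induced genes lay mostly below WT without passing the test, while Dux did not. Among all tested genes, 3271 of 7675 lay below WT, 2.58% were called higher and 0.704% lower. Of 32 tested members of the list, 27 were below WT and 5 above, and the median was -0.69. Of these 32, 1 was called, upward, and 8 had an unadjusted p below 0.05 (limma). Without WT library 3, 26 of 31 were below, the median was -0.48 and 1 was again called upward. The summed FPKM of the list ran from 112 to 368 (median 238) in MZ-KO and from 87.6 to 1015 (median 258) in WT, the WT maximum being library 3 and the next 428. Zscan4c, a DNA-binding protein of 2-cell embryos, was between 0.563 and 21.96 FPKM (median 5.19) in MZ-KO and between 0.851 and 79.98 (median 12.4) in WT. It differed by -1.16 (95% interval -2.90 to 0.58), and by -0.76 without WT library 3. Zscan4d differed by -0.66 (-1.95 to 0.635), or -0.32 without that library, and Zfp352, a zinc finger gene, by -0.92 (-1.96 to 0.11). Their embryos overlapped widely, and reads of single Zscan4 genes are uncertain because the copies are alike. Duxf3, the annotated Dux copy, ran from 0.764 to 8.81 FPKM (median 4.18) in MZ-KO and from 1.15 to 5.198 (median 1.89) in WT, a difference of 0.40 (-0.45 to 1.24, adjusted p = 0.605). Among the 14 tested genes that are Dux copies or regulate Dux, limma called 0, with 3 at an unadjusted p below 0.05, and Dppa2, an activator of Dux, differed by 0.03 (-0.26 to 0.32).

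Tcstv3 was the called member, and Tcstv1, AA792892, Arg2 and Sp110 were the others above WT. Tcstv3 ran from 6.54 to 30.1 FPKM (median 14.3) in MZ-KO and from 1.33 to 8.83 (median 4.65) in WT and rose by 1.535 (SE 0.37, adjusted p = 0.0371). Tcstv1 ran from 36.6 to 97.2 (median 52.75) in MZ-KO and from 0.069 to 47.15 (median 16.05) in WT, a difference of 2.715 (SE 0.75) that missed the threshold (adjusted p = 0.0587). For both genes the highest WT embryos overlapped the lowest MZ-KO embryos. Leaving out any of MZ-KO libraries 1, 2, 3, 4 and 6 or WT libraries 1, 4, 5, 7 and 8 ended the call of Tcstv3. A core motif that Dux recognises (TGATT, then any 2 bases, then ATCA) was found on either strand in the promoter windows of 0.244% of all genes, 0.162% of tested genes and 4 of 18 Dux-induced genes with a window, all of them Zscan4 copies. Of the called rises and falls with a window, 0 held it. The windows of Zscan4c and Zscan4d are shown because these are the list's best known members and hold the motif, which is in capitals (RefSeq, GRCm38.p6).
Zscan4c (chr7:11005495-11005794, plus strand): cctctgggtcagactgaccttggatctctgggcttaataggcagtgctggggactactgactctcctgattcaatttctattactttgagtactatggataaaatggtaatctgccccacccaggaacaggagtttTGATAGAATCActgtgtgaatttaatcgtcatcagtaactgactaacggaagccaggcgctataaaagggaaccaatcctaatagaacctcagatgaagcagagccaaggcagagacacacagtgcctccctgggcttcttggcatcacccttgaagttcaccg
Zscan4d (chr7:11166099-11166398, minus strand): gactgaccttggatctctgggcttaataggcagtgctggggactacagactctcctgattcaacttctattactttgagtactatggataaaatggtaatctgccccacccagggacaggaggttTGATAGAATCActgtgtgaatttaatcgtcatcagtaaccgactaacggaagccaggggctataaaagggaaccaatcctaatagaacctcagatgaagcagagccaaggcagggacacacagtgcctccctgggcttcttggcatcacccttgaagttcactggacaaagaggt

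**Figure D3:**
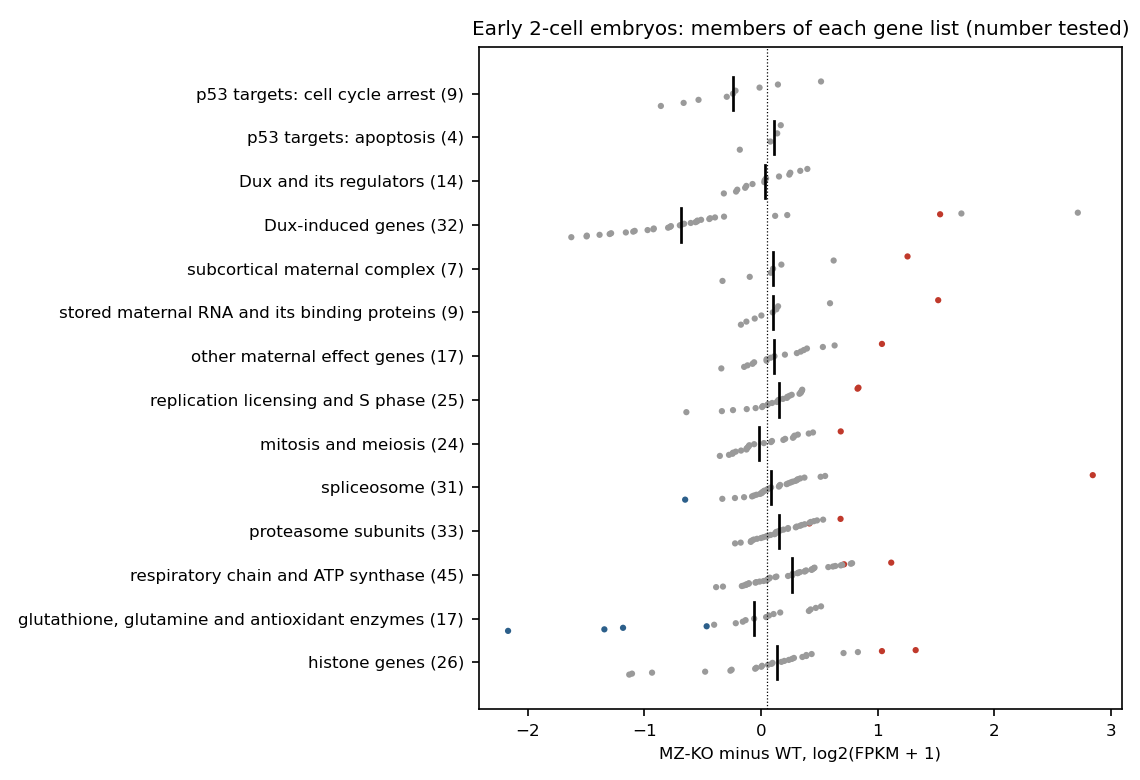
Each point is a tested gene, placed by its MZ-KO minus WT difference in log2(FPKM + 1); red and blue points were called higher and lower, black bars are the list medians and the dotted line is the median of all tested genes (0.05). The Dux-induced list has the lowest median of those drawn (-0.69) but its called member lies on the right.

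Zar1, H1foo and Tle6, all present in eggs, rose, and limma called 0 genes of the maternal lists lower. In the 6 eggs Zar1 ran from 123 to 394 FPKM, H1foo from 1062 to 1682 and Tle6 from 5.42 to 14.7. Zar1 and H1foo were below these ranges in every early embryo, whereas the highest Tle6 values of MZ-KO embryos lay above that of any egg. Zar1, which binds maternal mRNA and holds it in store, ran from 22.7 to 59.9 FPKM (median 49.35) in MZ-KO and from 7.135 to 28.1 (median 14.9) in WT and rose by 1.52 (SE 0.28, adjusted p = 0.0118). The WT maximum lay above the MZ-KO minimum, so the groups overlapped. H1foo, the linker histone of the oocyte, ran from 55.15 to 123 (median 83.6) against 28.2 to 76.8 (median 40.01), a rise of 1.04 (SE 0.22, adjusted p = 0.0215). Tle6, a subunit of the subcortical maternal complex that is needed for the first divisions, ran from 10.8 to 45.8 (median 22) against 5.36 to 10.9 (median 9.07), a rise of 1.26 (SE 0.29, adjusted p = 0.03035). Of the lists behind them, 1 of 9 stored RNA genes, 1 of 7 genes of the subcortical complex, 1 of 17 other maternal effect genes, 0 of 12 zona pellucida and oocyte growth genes and 0 of 15 mRNA decay genes were called higher, beside 2.58% of all tested genes, with medians of 0.10, 0.10, 0.12, 0.15 and 0.02. At an unadjusted p below 0.05 there were, in the same order, 2, 3, 4, 1 and 5 genes. Mos, the kinase that arrests the egg in meiosis, differed by -0.24 (-0.87 to 0.39). In eggs labelled KO the same 3 genes differed from WT eggs by 0.41 (Zar1), 0.25 (H1foo) and 0.28 (Tle6), and none of these passed the test (adjusted p at least 0.788). Leaving out MZ-KO library 2, 5 or 6 ended the calls of H1foo and Tle6, as did MZ-KO library 3 or WT library 4 for Tle6 and the fit of all 32 libraries for H1foo.

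A further set of transcripts stored in the egg was the Fbxw cluster of chromosome 9, F-box genes expressed in oocytes, which was singled out after its values were seen. All 15 tested genes between chr9:109139447-109790670 lay above WT, by 0.07 to 1.21 with a median of 0.89, and 5 were called: Fbxw14, Fbxw28, Fbxw18, Fbxw22 and Fbxw19. Of all tested genes, 2.58% were called higher and 4404 of 7675 lay above WT. Fbxw14 ran from 58.2 to 127 FPKM in MZ-KO and from 15.75 to 70.35 in WT (difference 1.19, SE 0.30, adjusted p = 0.0461). Fbxw18 ran from 5.82 to 14.4 and from 1.58 to 5.78 (1.17, SE 0.23, adjusted p = 0.0152), and its groups did not overlap. The call of Fbxw14 ended in 15 of 22 alternative fits and that of Fbxw28 in 11 of 22. WT library 3 was the lowest WT embryo in 14 of the 15, and without it the median was 0.72, 14 lay above WT and 6 were called. All 15 fell from WT egg to WT late embryo, by 1.10 to 4.64. The copies are alike, so their reads may be shared and the 15 are not independent: the transcripts of Fbxw14 and Fbxw28 are 99.2% identical over 1619 aligned bases, and those of the other pairs of the 4 genes printed here 82.8% to 87.6%. Their RefSeq promoter windows (GRCm38.p6) are 91.8% to 97.7% identical, and capitals mark the longest run common to the 4, of 34 bases.
Fbxw14 (chr9:109287627-109287926, minus strand): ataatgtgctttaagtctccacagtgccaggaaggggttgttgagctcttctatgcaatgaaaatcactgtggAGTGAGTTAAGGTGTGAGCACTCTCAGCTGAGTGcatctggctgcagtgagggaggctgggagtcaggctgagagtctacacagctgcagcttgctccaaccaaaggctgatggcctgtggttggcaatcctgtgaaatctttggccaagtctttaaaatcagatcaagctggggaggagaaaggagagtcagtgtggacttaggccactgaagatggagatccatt
Fbxw28 (chr9:109339610-109339909, minus strand): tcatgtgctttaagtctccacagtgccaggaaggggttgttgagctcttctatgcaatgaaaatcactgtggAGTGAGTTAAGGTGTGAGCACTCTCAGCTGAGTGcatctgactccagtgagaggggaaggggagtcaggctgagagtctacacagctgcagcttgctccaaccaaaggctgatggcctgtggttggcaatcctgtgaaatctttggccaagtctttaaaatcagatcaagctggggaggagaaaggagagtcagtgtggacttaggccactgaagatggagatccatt
Fbxw18 (chr9:109702651-109702950, minus strand): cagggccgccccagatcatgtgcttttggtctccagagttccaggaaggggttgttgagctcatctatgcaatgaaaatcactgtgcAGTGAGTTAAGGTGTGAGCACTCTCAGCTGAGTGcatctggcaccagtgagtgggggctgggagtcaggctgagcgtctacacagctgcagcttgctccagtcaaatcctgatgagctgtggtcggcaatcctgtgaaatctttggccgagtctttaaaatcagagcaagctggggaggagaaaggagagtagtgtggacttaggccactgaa
Fbxw19 (chr9:109495805-109496104, minus strand): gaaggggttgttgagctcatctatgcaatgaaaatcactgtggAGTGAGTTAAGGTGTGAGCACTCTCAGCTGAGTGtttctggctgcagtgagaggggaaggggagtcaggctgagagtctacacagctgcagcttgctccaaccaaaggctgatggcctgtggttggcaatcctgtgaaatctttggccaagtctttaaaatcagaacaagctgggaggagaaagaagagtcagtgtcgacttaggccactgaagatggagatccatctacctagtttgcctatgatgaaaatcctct

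**Figure D4:**
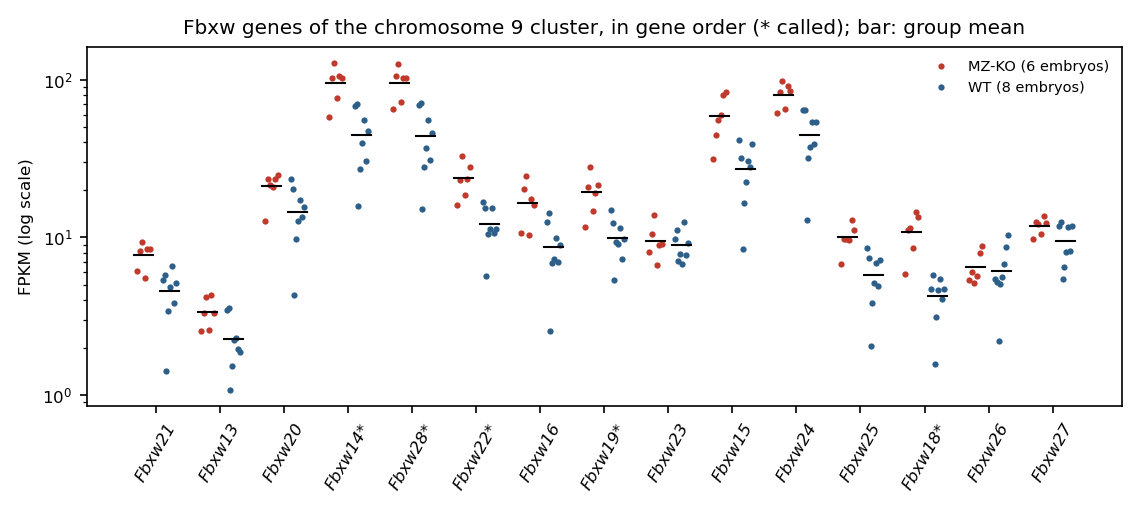
FPKM on a log axis of each tested Fbxw gene of the chromosome 9 cluster in the 6 MZ-KO (red) and 8 WT (blue) early embryos, with bars at the group means. The MZ-KO mean is the higher in all 15 genes, and asterisks mark the 5 called ones.

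The protein-coding gene with the smallest p was Crnkl1 (chr2:145917479-145935014, minus strand, mm10), a component of the spliceosome. It ran from 13.6 to 18.5 FPKM (median 16.1) in MZ-KO embryos and from 0.659 to 3.52 (median 1.16) in WT. No WT embryo came near the MZ-KO range. The rise was 2.84 (SE 0.19, adjusted p = 8.4e-07). The early WT embryos were the low group: Crnkl1 was between 6.996 and 11.8 FPKM in the 3 eggs labelled KO, between 7.61 and 9.003 in the 3 WT eggs, between 14.1 and 22.97 in the 6 late embryos labelled MZ-KO and between 15.3 and 31.9 in the 6 late WT embryos. The overlapping gene Cfap61 reached at most 0.053 FPKM in these embryos. Of 31 tested spliceosome genes 1 was called higher (Crnkl1) and 1 lower (Prpf31, a protein of the U4/U6 particle, -0.65, adjusted p = 0.0413). Of all tested genes, 2.58% were called higher and 0.704% lower. Of the 31, 23 lay above WT with a median of 0.09, beside 4404 of 7675 and 0.05 for all tested genes. The summed FPKM of the list, Crnkl1 included, was 218 to 247.8 in MZ-KO and 185.7 to 220 in WT. The fall of Prpf31 was lost on leaving out any of MZ-KO libraries 2, 3, 5 and 6 or WT libraries 1, 3, 4, 5, 7 and 8 (adjusted p = 0.0563 without WT library 3). Gemin6, of the SMN complex that assembles spliceosomal particles, rose by 0.49 from a WT range of 8.38 to 14.7 to a range of 14.9 to 19.65 FPKM (adjusted p = 0.0461). Its call ended in 17 of 22 alternative fits. Smn1, the core member of that complex, named after its values were seen, rose by 0.58 (adjusted p = 0.0347).

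Orc6 and Cdt1, which prepare DNA for replication, rose. Orc6, a subunit of the origin recognition complex, ran from 38.1 to 63 FPKM (median 47.8) in MZ-KO and from 21.2 to 34.3 (median 26.4) in WT, without overlap, and rose by 0.835 (SE 0.15, adjusted p = 0.00993). Cdt1, which loads the replicative helicase, ran from 6.93 to 13.5 (median 12.1) against 4.43 to 8.09 (median 5.80) and rose by 0.83 (SE 0.16, adjusted p = 0.0163). These were 2 called rises among 25 tested genes of replication licensing and S phase, of which 20 lay above WT (median 0.15), beside 2.58% called higher and 4404 of 7675 above WT among all tested genes. The summed FPKM of the list was 210 to 259 in MZ-KO and 173 to 206 in WT embryos, without overlap. The lowest MZ-KO sum, 209.5 in library 4, held 38.1 FPKM of Orc6, and the highest WT sum, 206.3 in library 8, held 21.2. Between these 2 libraries Orc6 differed by more than the sums did, so the lack of overlap depended on Orc6. The mean sums, 233.7 in MZ-KO and 189 in WT, lay farther apart than the Orc6 medians of 47.8 and 26.4. Other members thus added to the gap. Among 24 genes of mitosis and meiosis, 1 rose and 0 fell, with a median of -0.02. That gene, Aurkc, the Aurora kinase of meiosis and the first divisions, rose by 0.68 (adjusted p = 0.0208) from a median of 2.48 to one of 4.48 FPKM, and its call ended without MZ-KO library 6 and with the trend on gene span taken out. Cenps, a DNA-binding protein of the inner kinetochore and of DNA repair, rose by 0.73 (adjusted p = 0.0163) with no overlap between 16.1 to 25.7 and 8.645 to 15.3 FPKM. H2afx, the histone that is phosphorylated at DNA breaks, rose by 1.33 (SE 0.26, adjusted p = 0.0162) from a WT median of 0.961 to 4.50 FPKM and was the 1 of 18 DNA damage genes called. With a pseudocount of 0.1 in place of 1 that call was lost. Ccng2, a cyclin that goes with cell cycle exit, fell by 0.76 (SE 0.18, adjusted p = 0.0319), from 7.74 to 16.8 FPKM in WT to 4.33 to 8.43 in MZ-KO, and leaving out MZ-KO library 1, 2, 3 or 5 or WT library 4 or 7 ended its call.

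Pfn1, profilin, which delivers actin monomers to growing filaments, ran from 55.3 to 91.5 FPKM (median 73.2) in MZ-KO and from 21.2 to 45 (median 29.8) in WT. The groups did not overlap and the rise was 1.23 (SE 0.17, adjusted p = 0.0018). Mmadhc, which routes vitamin B12 inside the cell, rose by 0.94 (SE 0.16, adjusted p = 0.00839), from 6.05 to 12.3 in WT to 12.99 to 20.2 in MZ-KO. Dad1, a subunit of the enzyme that attaches N-glycans, rose by 1.26 (SE 0.25, adjusted p = 0.0172) and its highest WT and lowest MZ-KO values were both 10.9 FPKM. Mdh1, cytosolic malate dehydrogenase, rose by 0.73 without overlap (adjusted p = 0.0115). Over all tested genes, 2.58% were called higher and 4404 of 7675 lay above WT, with a median of 0.05. These shares are the background of each list in this paragraph. Of 45 tested genes of the respiratory chain and ATP synthase, 34 lay above WT with a median of 0.27, and 2 were called: Ndufa4 (1.12, adjusted p = 0.0413) and Cox6c (0.71, adjusted p = 0.0265), both subunits of cytochrome oxidase. Leaving out MZ-KO library 6, or taking out the trend on gene span, ended both calls. That of Ndufa4 ended in 13 of 22 alternative fits. Among them were median-ratio scaling, the trend on exon length taken out, and the fits without MZ-KO library 2, 3 or 4 or WT library 1, 4, 5, 6 or 8. The list's median and its count above WT were not computed with a length trend taken out. The subunits Dlat (1.05, adjusted p = 0.00179) and Pdhb (0.69, adjusted p = 0.0402) of the pyruvate dehydrogenase complex, named after their values were seen, rose too. Dlat was below FPKM 1 in all 8 WT embryos and so was tested only through the MZ-KO group. Of 33 tested proteasome genes, 25 lay above WT (median 0.15) and 2 were called, Psmd9 (0.42, adjusted p = 0.0186) and Psma2 (0.68, adjusted p = 0.0461). The call of Psma2 ended in 17 of 21 alternative fits, among them that without WT library 3 (adjusted p = 0.0563). Of 28 tested ribosomal protein genes limma called 0, with 5 at an unadjusted p below 0.05, 18 above WT and a median of 0.07. Of 14 genes of the nucleolus, 1 was called: Npm1, nucleophosmin, rose by 0.48 (adjusted p = 0.0371), and that call ended in 16 of 22 alternative fits. Brix1, which acts in assembly of the large ribosomal subunit, rose by 0.76 (adjusted p = 0.0263) without overlap, from 15.8 to 34.1 FPKM in WT to 36.3 to 60 in MZ-KO. Its call ended without MZ-KO library 2, 3, 5 or 6. The mitochondrial co-chaperonin Hspe1 rose by 0.61 (adjusted p = 0.0251), the 1 of 21 chaperone genes called. Leaving out MZ-KO library 2 or 5, or taking out either length trend, ended that call.

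**Figure D5:**
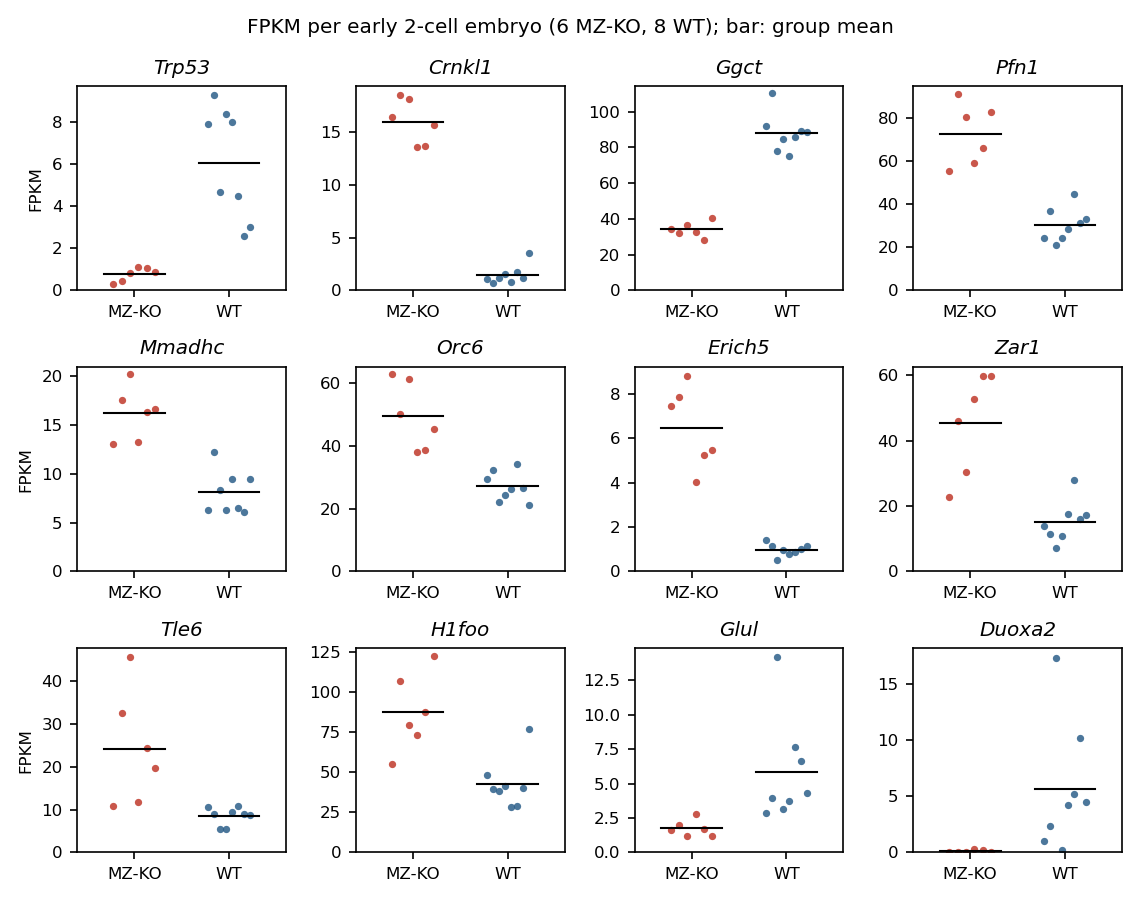
FPKM of 12 described genes in each early embryo, 6 MZ-KO (red) and 8 WT (blue), with bars at the group means and a linear axis from 0 in each panel. Trp53, Crnkl1, Ggct, Pfn1, Mmadhc, Orc6, Erich5 and Glul show no overlap between groups; Zar1, Tle6, H1foo and Duoxa2 overlap.

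The fall with the smallest p was that of Ggct, the gamma-glutamyl cyclotransferase of the glutathione cycle. It ran from 28.3 to 40.45 FPKM (median 33.5) in MZ-KO and from 74.9 to 110 (median 87.0) in WT. The groups did not overlap, and Ggct fell by 1.34 (SE 0.105, adjusted p = 5.4e-06). The 3 eggs labelled KO had 90.3 to 108 FPKM of Ggct and the 3 WT eggs 112 to 150.5 (difference -0.33, adjusted p = 0.6865), and in late embryos the difference was -0.55 (adjusted p = 0.0764). Glul, glutamine synthetase, ran from 1.19 to 2.80 FPKM in MZ-KO and from 2.89 to 14.2 in WT and fell by 1.18 (SE 0.27, adjusted p = 0.0319). Prdx3, the mitochondrial peroxiredoxin, fell by 0.47 (SE 0.095, adjusted p = 0.0185), from 1.82 to 2.96 in WT to 1.12 to 1.64. Duoxa2, needed for maturation of a hydrogen peroxide producing oxidase, was listed at 0 in 4 of the 6 MZ-KO embryos and at 0.228 and 0.285 in the other two, while WT ran from 0.218 to 17.4 (difference -2.17, SE 0.48, adjusted p = 0.0265). Duoxa2 was below FPKM 1 in all MZ-KO embryos and was tested only through 7 WT embryos, so its call adds nothing to the list. Beside it, Ggct, Glul and Prdx3 were the called falls among 17 tested genes of glutathione, glutamine and antioxidant enzymes, with 0 called rises. Of all tested genes, 0.704% were called lower. Of the 17, 8 lay above WT and 9 below, and the median was -0.06. The summed FPKM of the list was 271 to 335 in MZ-KO and 350 to 457 in WT, without overlap. The highest MZ-KO sum, 335 in library 6, held 40.45 FPKM of Ggct, and the lowest WT sum, 350.2 in library 8, held 88.5. Between these 2 libraries Ggct differed by more than the sums did, so the lack of overlap depended on Ggct. The mean sums, 296.8 in MZ-KO and 401.5 in WT, lay farther apart than the Ggct medians of 33.5 and 87.0. Other members thus added to the gap, though 8 of the 17 tested genes lay above WT. The calls of Glul and Duoxa2 ended on leaving out MZ-KO library 2, 3, 5 or 6, and that of Glul also without WT library 6 or 7. That of Prdx3 ended in the fit of all 32 libraries and with no filter on low values.

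The microRNA gene Mir8114 (chr1:153899926-153900036, plus strand, mm10) fell with Glul, whose start it overlaps on the same strand, so both genes may share reads. Its span held 12.7 to 24.1 FPKM in MZ-KO and 21.6 to 138 in WT (difference -1.38, SE 0.34, adjusted p = 0.0423). These libraries of long cDNA do not measure the mature microRNA, which is printed to identify the locus, with the seed of bases 2 to 8 in capitals, from RefSeq (GRCm38.p6, chr1:153899989-153900009, plus strand).
miR-8114: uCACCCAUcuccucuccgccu
Mir1893 (-0.87, adjusted p = 0.0423), inside Epc1 and the antisense gene Gm28529 (-0.69, adjusted p = 0.0365), and Gm26377 (-0.47, adjusted p = 0.0413), inside the elongation factor gene Eef1a1 (-0.34, adjusted p = 0.0935), were the other called microRNA genes. The call of Mir8114 ended in 10 of 22 alternative fits, those of Mir1893 and Gm26377 in 11 of 22 each and that of Gm28529 in 10 of 21. Without WT library 3 the adjusted p was 0.0603 for Mir1893 and 0.0504 for both Gm26377 and Gm28529.

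Other falls had no list in common. Peak1os, antisense to the kinase gene Peak1, ran from 4.10 to 7.87 FPKM in MZ-KO and from 10.7 to 16.99 in WT and fell by 1.16 (SE 0.16, adjusted p = 0.00179), while Peak1 itself differed by -0.30 (adjusted p = 0.0807). The values do not use strand, so the reads of the pair cannot be told apart where they overlap. Ralgds, an exchange factor for Ral GTPases, fell by 1.08 (adjusted p = 0.00839), and Ccdc186, a coiled-coil protein of dense core vesicles, by 0.94 (adjusted p = 0.00988) from 22.9 to 46.7 FPKM in WT to 15.2 to 19.97 in MZ-KO, both without overlap. Khdrbs1, the RNA-binding protein Sam68, fell by 0.84 (adjusted p = 0.0241), and its call ended without MZ-KO library 5 or 6. The keratin gene Krt18 ran from 0.306 to 2.485 FPKM in WT and was at most 0.607 in MZ-KO. It met the filter only through 6 WT embryos and was not tested without WT library 3, so its call is not used. Arpp19, an inhibitor of the phosphatase PP2A at entry into division, fell by 0.31 (adjusted p = 0.0461), and although its groups did not overlap the call ended in 15 of 22 alternative fits.

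The largest difference of all belonged to a processed pseudogene, Gm18765 (chr6:50627680-50628339), singled out after its values were seen. It ran from 35.99 to 75.9 FPKM (median 52.8) in the MZ-KO embryos and from 0 to 0.665 (median 0.198) in WT (difference 5.44, SE 0.17, adjusted p = 5.0e-11). It was tested only through the 6 MZ-KO embryos. In the 6 eggs it was at most 0.573 FPKM, in late embryos labelled MZ-KO between 0.714 and 16.9, and in WT late embryos at most 0.663. Pseudogenes made up 37 of the 198 rises and 7 of the 54 falls, against 1327 of the 7675 genes tested, and their reads may come from related genes. Erich5, a protein-coding gene rich in glutamate, ran from 4.02 to 8.79 FPKM in MZ-KO and from 0.534 to 1.42 in WT (1.89, SE 0.15, adjusted p = 5.7e-06). It was also high in an egg: KO egg library 1 held 12.9 FPKM, the other 5 eggs 1.47 to 2.37.

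The course of the called genes in normal development was read from libraries that the early comparison does not use. From WT egg to WT late 2-cell embryo, 8248 of 10423 genes (79.1%) were called, 52.0% higher and 27.1% lower in late embryos. Of the 198 genes higher in early MZ-KO embryos, 183 were tested there, and 99 (54.1%) were lower and 36 (19.7%) higher in late WT embryos, with a median of -0.75. Of all 6452 early-tested genes that could be compared, 40.7% were lower and 35.6% higher, with a median of -0.18. Zar1 (-6.61), H1foo (-8.48) and Mdh1 (-2.26) were among those that fell on the way to the late stage. Of the 54 genes lower in early MZ-KO embryos, 49 were tested, with 18 lower and 21 higher in late WT embryos. Glul rose by 6.15 and Duoxa2 by 2.69 from WT egg to WT late embryo, while Ggct fell by 4.05.

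The labels of the late embryos and eggs are used here as given, although Trp53 RNA was not lower in either: it was 1.48 to 5.39 FPKM in late embryos labelled MZ-KO and 0.557 to 7.09 in WT late embryos, and 6.33 to 9.81 in eggs labelled KO and 6.16 to 10.3 in WT eggs. In late embryos 2802 of 8772 genes (31.9%) were called, 18.5% higher and 13.4% lower in those labelled MZ-KO. Of the 151 early rises tested there, 40 (26.5%) were higher and 13 lower, against 21.6% and 11.7% of all 5257 early-tested genes. Of 41 early falls tested there, 8 were lower and 5 higher. Pfn1 (1.37, adjusted p = 0.041), Dad1 (1.28, adjusted p = 6.2e-04) and Mmadhc (1.03, adjusted p = 0.0042) were higher at both stages, and Glul (-1.90, adjusted p = 5.2e-05) and Ccdc186 (-0.92, adjusted p = 0.00901) lower at both. Duoxa2 was lower in late embryos too (-2.37, adjusted p = 3.5e-04), but it had entered the early test only through the WT group. Arpp19 (1.32, adjusted p = 6.2e-04) and Prdx3 (1.09, adjusted p = 0.0159), lower in early MZ-KO embryos, were higher in late ones. In eggs 22 of 6607 genes (0.333%) were called, 0.212% higher and 0.121% lower in those labelled KO. Of the 181 early rises tested in eggs, limma called 0 higher and 1 lower, Cnpy4 (-1.99, adjusted p = 0.00998), with 8 higher and 13 lower at an unadjusted p below 0.05. Of the 38 early falls tested in eggs, 0 were called, with 0 higher and 2 lower at an unadjusted p below 0.05.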

How the data were processed

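Libraries of single mouse eggs and 2-cell embryos were sequenced, and the authors' deposited table gives an FPKM value per gene and library. Per the submitters' processing notes, TopHat2, DESeq, DESeq2 and build mm10 were used; their versions, and the annotation, are not given in the sources used here. Low FPKM values step in whole reads when length is the genomic span (at least 99.4% of low values of genes up to 2000 bp, within 0.1 read), so the length used includes introns, and the step size gives each library's depth. The kit does not mark strand. The authors' mean column tied the 6 columns headed KO_2LC to the late MZ-KO group. Headers carry no replicate number, so libraries were numbered in column order.

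log2(FPKM + 1) was modelled in R 4.3.3 by limma 3.58.1, with trend and robust moderation, two-sided, with Benjamini-Hochberg adjustment and a threshold of 0.05. A count model had been planned for the case of a count table and was not used, because the table holds FPKM. Other stages were fitted alone, on genes with FPKM 1 or more in at least 6 libraries (late embryos) or 3 (fits with eggs). Gene IDs were matched to GENCODE M21 (54495 of 54532). Promoter windows were matched by symbol for 4310 tested symbols. Methods were tested on simulated data.

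Named genes were the 15 largest called rises and falls without clone-based symbols, the 20 called protein-coding genes with the smallest p, no overlap between groups and FPKM 10 or more in the mean of the higher group, all called list members, called microRNA genes with the genes they overlap, and 19 genes given whatever their call. The members, lists and rules were chosen with earlier results of these data known. Genes named outside these rules are marked in the text as chosen after their values were seen.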

Additional observations from a re-analysis of the deposited data

Results flagged for a closer look

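Among 150 groups of libraries examined (a gene or a library measure in 1 early group, on the log2 scale for genes), 9 had a lone sample farther from the rest than Dixon's 95% limit; chance gives about 1 in 20. WT library 3 was the lone sample in 5. Its position between WT egg and WT late embryo was 30.3% against at most 19.9% in the other WT embryos, Cdkn1a was at 13.99 FPKM against at most 4.54 and Obox4-ps33 at 13.8 against at most 6.16, while Laptm4b was at 3.63 against at least 5.66 and Sbds at 8.04 against at least 16.8. WT library 7 was high in Snora47 (17.8 against at most 7.33 FPKM) and Gm26377 (132 against at most 108). WT library 2 was high in Olfr877 (3.79 against at most 1.02), and MZ-KO library 1 was low in Cfap298 (9.42 against at least 11.2).

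The genotype difference itself was compared between stages for 19 fixed genes, as a contrast of 4 groups in limma, with 37 gene and stage pairs in all. The Trp53 difference was lower in early than in late embryos by -1.89 (adjusted p = 0.00348) and lower than in eggs by -1.98 (adjusted p = 0.044). Early minus late differences past the threshold were also found for Cdkn1a (-3.02, adjusted p = 3.0e-04), Ccng1 (-1.44, adjusted p = 0.00395) and Mdm2 (-0.69, adjusted p = 0.0475). In late embryos labelled MZ-KO, Cdkn1a (2.16, adjusted p = 0.00115), Ccng1 (0.90, adjusted p = 0.017) and Mdm2 (0.96, adjusted p = 0.00316) were higher than in WT.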

How the results depend on the processing

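The count of 252 called genes was 56 with no filter on low values and 430 in a fit of all 32 libraries; the 198 rises became 42 and 317, and the 54 falls 14 and 113. With the trend on gene span taken out the rises numbered 118, and with the trend on exon length, an alternative added after seeing the data, the falls numbered 100. Leaving out 1 library gave 96 to 351 calls, 78 to 247 rises and 18 to 104 falls. Without MZ-KO library 2, 3, 5 or 6 the falls numbered 27, 20, 21 and 18, and without WT library 2, 5 or 7 they numbered 104, 32 and 24; the causes were not tested. With a pseudocount of 0.1, a filter of FPKM 5, median-ratio scaling or no trend and robust moderation, the count lay between 177 and 276. Trp53 stayed called in all 21 alternatives that tested it, with differences of -2.79 to -1.82. Of the 59 named called genes 48 lost the call in at least 1 alternative, and 0 reversed. Genes called the same way in early and late embryos numbered 48, but 13 with no filter and 29 with a filter of FPKM 5. Early rises called lower in WT late embryos than in WT eggs numbered 99, but 17 with no filter. For eggs the count was 0 in each alternative run (limma). No paired analysis was possible because the column headers carry no replicate number. The depth of WT library 8, 7158456 reads, is the lowest and limits genes of low level.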

Other observations

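Further lists, chosen with earlier results known, held few calls. Of all tested genes, 2.58% were called higher and 0.704% lower. Of 9 tested early embryonic transcription factors limma called 0 (2 at an unadjusted p below 0.05), and 7 lay below WT (median -0.08). Of 10 genes of the Bcl-2 family and caspases 0 were called (1 at an unadjusted p below 0.05, median 0.07), and of 7 stress response factors 0 (2 at an unadjusted p below 0.05, median -0.08). Of 26 tested histone genes 2 rose, H1foo and H2afx, and 0 fell (median 0.14). Both were already counted in lists described above. Of 10 genes of p53 and its regulators 1 fell, Trp53 itself. Of 4 keratin and junction genes 0 were called besides Krt18 (1 at an unadjusted p below 0.05, Krt18 included). Tested markers of other tissues were few: 1 of 9 for blood and immune cells, 1 of 3 for the oviduct and 0 of 8 for sperm, with 0 called.

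Of the 198 early rises, 5, Erich5, Dlat, Gm14567, Gm47877 and 6030458C11Rik, were more than 2 times as high in KO egg library 1 as in every other egg (2.53% of the rises, against 0.912% of all tested genes). The pseudogene Gm14567 was at 4.26 FPKM in that egg and at most 0.816 in the others, and Gm47877, tested in early embryos only through the MZ-KO group, at 3.11 and at most 0.537. These genes, and those of RNase H, were chosen after their values were seen. The RNase H genes differed in sign: Rnaseh1 rose by 0.56 (adjusted p = 0.0305) and Rnaseh2a, which overlaps Prdx2, fell by 0.47 (adjusted p = 0.0291) in MZ-KO early embryos (limma). Calls were most frequent on chromosomes 18 (6.04% of 149 tested genes), 19 (5.63%) and 9 (5.57%), beside 3.28% of all tested genes. The calls on chromosome 9 include the 5 Fbxw genes, which are not independent. Of the tested genes of chromosome 11, which carries Trp53, 2.94% were called.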
